A study of Homo sapiens with 20 samples.

Results

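The 9 genes described here act in nucleotide excision repair, translesion synthesis and nucleotide supply and are linked to p53: DDB1, DDB2, XPC, XPA, ERCC1, ERCC5, POLH, POLK and RRM2B. They were taken from the NGP nutlin data by gene name, with the estimated counts of their transcripts summed, and all 9 of the 9 passed the filter on low counts, among 27697 genes tested (17351 of them mRNAs). NGP is a human neuroblastoma cell line. The comparison was of 10 cultures given nutlin-3 as a racemic mixture at 8 µM with 10 cultures given its ethanol vehicle, all of the same line in 6-well format and with no other agent or allele named. Poly(A) RNA libraries were stranded and read as pairs. The time under treatment is not given in the sources used here. The replicates are cultures of 1 line, so the p-values measure the spread between such cultures.

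Nutlin-3 occupies the pocket of MDM2 that binds p53, which slows the breakdown of p53 and lets it act on its target genes without DNA damage. In global genome repair a lesion is found by UV-DDB, made of DDB1 and DDB2, and by XPC. TFIIH then opens the helix, XPA checks the damage, the nucleases XPF-ERCC1 and XPG (the product of ERCC5) cut on either side, and polymerases fill the gap. Lesions that remain can be passed by the translesion polymerases eta (POLH) and kappa (POLK), while RRM2B is the small subunit of a ribonucleotide reductase that supplies nucleotides outside S phase.

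The p53 response element is a pair of copies of a 10-base motif (the p53 decamer), set apart by 0 to 10 bases. Because the pattern reads the same on both strands, 1 scan covers both. Only pairs in which the 4 central bases of both decamers matched were counted, and mismatches could lie at the other bases. RefSeq promoters of 300 bases (GRCh38.p14, 250 bases before the start and 50 from it) were matched for 8 of the 9 genes. DDB2 had a pair with 0 mismatches, 1 base apart, and only 9 of all 35116 RefSeq promoters (0.0256%) had such a pair. It began at base 6 of the DDB2 transcript, in exon 1 and within the 5′ UTR, at chr11:47214979-47214999 on the plus strand. In a wider scan of 2 kb either side of the canonical start, 58 of 16748 tested mRNAs (0.346%) had a pair with 0 mismatches. Within that window the best pairs of XPC and POLH had 4 mismatches, and 78.2% of these mRNAs had a pair with 4 or fewer. POLK had a pair with 3 mismatches, and 46.8% of the mRNAs had one with 3 or fewer. XPA and DDB1 had 4 mismatches and ERCC5 had 6. The 4 sequences below are shown as the best pairs of the genes scanned that rose after nutlin (DDB2, XPC and POLH) and of POLK, which was not called. No relation between the closeness of a match and the response was tested, and the scan is not reported for every gene. Capitals mark the bases of each decamer that match the pattern (hg38, on the strand of each gene, 5′ to 3′).
DDB2, chr11:47214975-47215003 (+), 5′ UTR: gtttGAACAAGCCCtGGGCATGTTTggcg
XPC, chr3:14178484-14178513 (-), coding sequence of XPC: agaaAtcCAAGgCCaaGAGCAAGgCCcggc
POLH, chr6:43575450-43575478 (+), before the start: cgagGGtCATGTTgcGGACAAGagTgcac
POLK, chr5:75510198-75510226 (+), before the start: ttaactGCTAGCTCcAGcCATGTCTaaaa
A match is a description of letters and does not show that p53 binds there. A pair with mismatches says only that no closer one with all central bases matched lies in these windows.

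Library totals lay between 14455477 and 19532971 estimated read pairs, with medians of 17819527 for vehicle and 15675936 for nutlin. MDM2, itself a p53 target and the check of the treatment, had a normalized CPM of 199 to 290 (median 249.99) under vehicle and 4797 to 6005 (median 5659) under nutlin, an LFC of 4.51 (SE 0.0703). The neuroblastoma markers HAND2 and MYCN had median TPM of 560 and 1685 under vehicle and of 467 and 1190 under nutlin. The list of 9 neuroblastoma markers to which they belong moved in both directions. In it 3 rose, 5 fell and 1 was not called, beside 32.4% of mRNAs that rose and 38.5% that fell. The Schwann cell marker SOX10 had a median TPM of 0 in both conditions. Mesenchymal markers moved in both directions, TWIST1 from a median TPM of 174 to 95.7 (LFC -0.93), COL1A1 from 2.40 to 8.13 (LFC 1.98) and PRRX1 from 0.183 to 0.801 (LFC 1.97), and the part of such cells or genes in the results below was not tested. A gene was called when its edgeR quasi-likelihood test, adjusted over all genes, passed 5% FDR, and LFC is the log2 fold change of nutlin against vehicle. Normalized CPM is the estimated count scaled to a common library size with TMM factors.

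Of the 9 genes 4 rose after nutlin (DDB2, XPC, POLH and RRM2B), DDB1 fell by a small amount, and XPA, ERCC1, ERCC5 and POLK were not called. The 5 calls stand beside 58.8% of all genes and 70.9% of mRNAs called in either direction. Calls upward were made for 32.3% of all genes and 32.4% of mRNAs, and calls downward for 26.5% and 38.5%, so that a call alone does not set these genes apart. An LFC of at least 2 together with a call was found for the same 4 genes and for 5.9% of mRNAs. XPC (LFC 2.10) and POLH (LFC 2.09) lay just above this cutoff, which is not the 1 used to name partners. The share is therefore a description and not a test. In each of the 4 every nutlin sample lay above every vehicle sample, which held for 14.5% of mRNAs, and in DDB1 every nutlin sample lay below, which held for 25.6%.

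**Figure D1:**
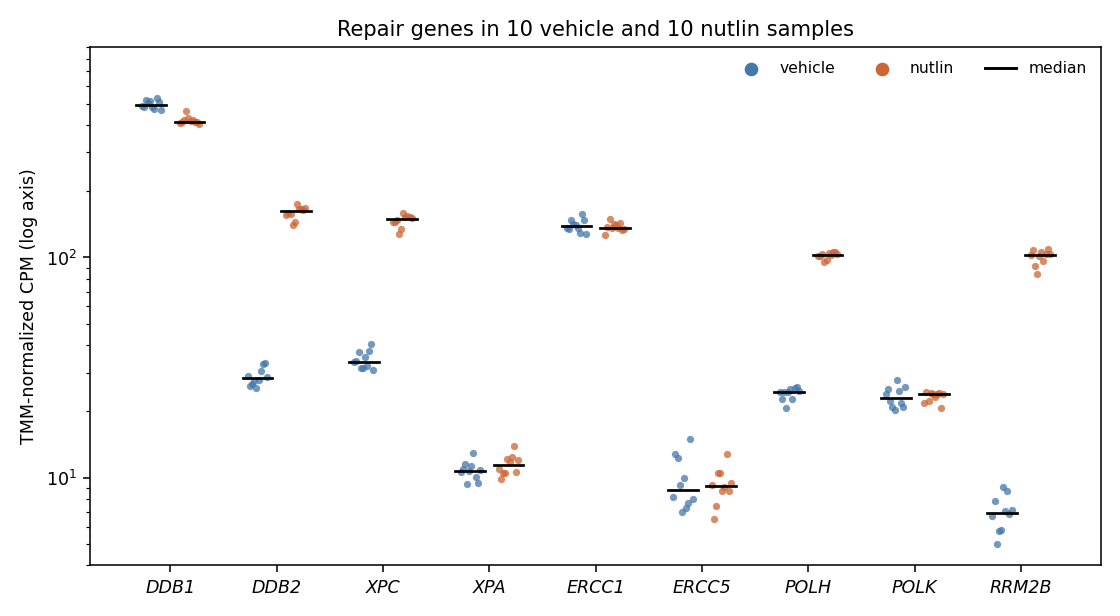
TMM-normalized CPM of each of the 9 repair genes on a log axis, with a point for each of the 10 vehicle (blue) and 10 nutlin (orange) samples and a line at the median. DDB2, XPC, POLH and RRM2B separate fully, DDB1 separates by a small margin, and the other 4 genes overlap.

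DDB2 (ENSG00000134574, chr11:47214465-47239217, plus strand) encodes the subunit of UV-DDB that holds the damaged base. Its normalized CPM ran from 25.7 to 33.1 (median 28.2) under vehicle and from 139.9 to 174 (median 162) under nutlin. No nutlin sample came near the vehicle range. The change was 5.55-fold (95% interval 5.19 to 5.93), with an LFC of 2.47 (SE 0.0489) and an edgeR adjusted p of 1.07e-26. Among mRNAs ordered by LFC from the highest, DDB2 stood at rank 650.

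DDB1 (ENSG00000167986, chr11:61299451-61342596, minus strand) is the adaptor that joins DDB2 to the CUL4 ubiquitin ligase. It was the most abundant of the 9 in read pairs, with 469 to 531 normalized CPM (median 493) under vehicle and 406 to 461 (median 414) under nutlin. The ranges lay side by side without overlapping. The LFC was -0.24 (SE 0.0314, edgeR adjusted p 9.23e-08), which is 0.847 of the vehicle level. Nutlin replicate 4 was the highest of its group. The gene shares 493 exon bases with TKFC on the opposite strand, whose LFC was 0.43, and whether counting used strand is not given in the sources used here.

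XPC (ENSG00000154767, chr3:14145147-14178621, minus strand) binds the unpaired bases opposite a lesion. Vehicle samples had 31.0 to 40.6 normalized CPM (median 33.6) and nutlin samples 128 to 159 (median 149.6). All nutlin values were thus above 3 times the highest vehicle value. The fold change was 4.28 (95% interval 4.01 to 4.58), the LFC 2.10 (SE 0.0485) and the edgeR adjusted p 3.8e-25. XPC-AS1, a lncRNA on the opposite strand with 1140 shared exon bases, had an LFC of 2.18 and a median of 40 estimated counts under vehicle and 195.5 under nutlin, against 516 and 2326 for XPC. Its part in the value of XPC was not tested.

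The 6 partners of damage recognition all fell, against 38.5% of mRNAs that fell, with LFCs between -0.94 and -0.25 and a median of -0.66 beside -0.01 over all mRNAs tested. RAD23B, which stabilises XPC, went from a median normalized CPM of 295.6 to 171 (LFC -0.79, SE 0.0272). RBX1, the RING subunit of the CUL4 ligase, went from 77.8 to 42.8 (LFC -0.81). CUL4A, its scaffold, went from 88.5 to 73.4 (LFC -0.25). The recognition step therefore held both the genes with a large rise, DDB2 and XPC, and partners whose samples were lower under nutlin without overlap.

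XPA (ENSG00000136936, chr9:97674909-97697340, minus strand) is the scaffold that holds the incision complex on the damaged strand. Its normalized CPM was 9.36 to 13.0 (median 10.8) under vehicle and 9.85 to 13.9 (median 11.4) under nutlin. Most of the nutlin samples lay inside the vehicle range. XPA was not called (LFC 0.09, 95% interval -0.04 to 0.22, edgeR adjusted p 0.265). With the filterByExpr filter of edgeR, which keeps fewer low genes, XPA was called with an LFC of 0.17 and an edgeR adjusted p of 0.0269. That setting moved the median LFC of all genes it keeps by 0.0771, from -0.043 to 0.0341. The move in XPA was thus like that of the kept genes at large. A change of more than 1.17-fold lay outside the 95% interval of the fit with all genes.

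ERCC1 (ENSG00000012061, chr19:45407334-45478828, minus strand) is the DNA-binding partner of the XPF nuclease. Vehicle samples had 128 to 158 normalized CPM (median 139) and nutlin samples 127 to 150.01 (median 137). The ranges coincided almost fully. The LFC of -0.02 (95% interval -0.09 to 0.05) did not pass the test (edgeR adjusted p 0.644). ERCC1 shares 1593 of its 5575 exon bases with POLR1G on the opposite strand, which fell with an LFC of -1.005 (median estimated counts 667.5 and 335.5, against 2176 and 2117 for ERCC1). Its part in the ERCC1 value was not tested.

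ERCC5 (ENSG00000134899, chr13:102845831-102875995, plus strand) encodes the nuclease XPG. Only 6 of its 18 transcripts in GENCODE release 44 were among those counted, and none of the 6 has the type protein coding in that annotation, its canonical coding transcript not being matched. The values below therefore do not describe its main mRNA. They amounted to 6.97 to 14.9 normalized CPM (median 8.74) under vehicle and 6.50 to 12.9 (median 9.19) under nutlin. The coefficient of variation of 27.9% among vehicle samples was the largest of the 9 genes. No call was made (LFC -0.06, 95% interval -0.31 to 0.19, edgeR adjusted p 0.730).

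Of the other genes that act around the incision, TFIIH had 8 of 10 subunits lower and 1 higher, against 38.5% of mRNAs lower and 32.4% higher, with a median LFC of -0.31 and none beyond 1 on the log2 scale. The higher one, GTF2H4 (LFC 0.11, named after its value was seen), was not called at 1% FDR. In transcription-coupled repair 3 of 4 genes rose and 1 fell, against the same shares, with a median LFC of 0.27 and a range from -0.31 to 0.48. Among the 3, XAB2 (LFC 0.09, also named after its value was seen), overlapped between the groups and was not called at 1% FDR or with an offset for effective length. ERCC4, which encodes the nuclease XPF, was called higher in read pairs, with a median normalized CPM of 11.6 and 14.2 (LFC 0.35, SE 0.0690). This call depended on transcript length, since its median TPM was 5.80 and 5.70 and with the effective length offset its LFC was -0.0148 (edgeR adjusted p 0.926). The 3 subunits of RPA, which coats the unpaired strand, all fell, with an LFC of -1 or below that 7.67% of mRNAs had together with a call. RPA1 had an LFC of -1.43, RPA2 of -1.45 and RPA3 of -2.18. In bulk RNA of this kind, fewer cells of a type and less RNA per cell cannot be told apart.

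Gap filling and ligation had 14 of 17 genes lower and 1 higher, beside 38.5% and 32.4% of mRNAs, with a median LFC of -1.13. All 5 subunits of the clamp loader RFC fell, with LFCs of -1.44 for RFC1, -2.11 for RFC2, -1.26 for RFC3, -1.63 for RFC4 and -2.17 for RFC5. The replicative polymerase genes POLD1 (LFC -1.57), POLD3 (-1.99), POLE (-1.13) and POLE2 (-2.27) fell as well. These polymerases also copy the genome in S phase. PCNA, the sliding clamp and a gene with a known p53 response, went from a median normalized CPM of 289.7 to 159.9 (LFC -0.94, SE 0.0531), with every nutlin sample below every vehicle sample. Across all 7 partner lists, which hold 57 genes, 44 fell, 7 rose and 6 were not called, again beside 38.5% and 32.4% of mRNAs, and their median LFC was -0.51. Across the settings tried, 43 or 44 of them were called lower and between 5 and 11 higher.

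**Figure D2:**
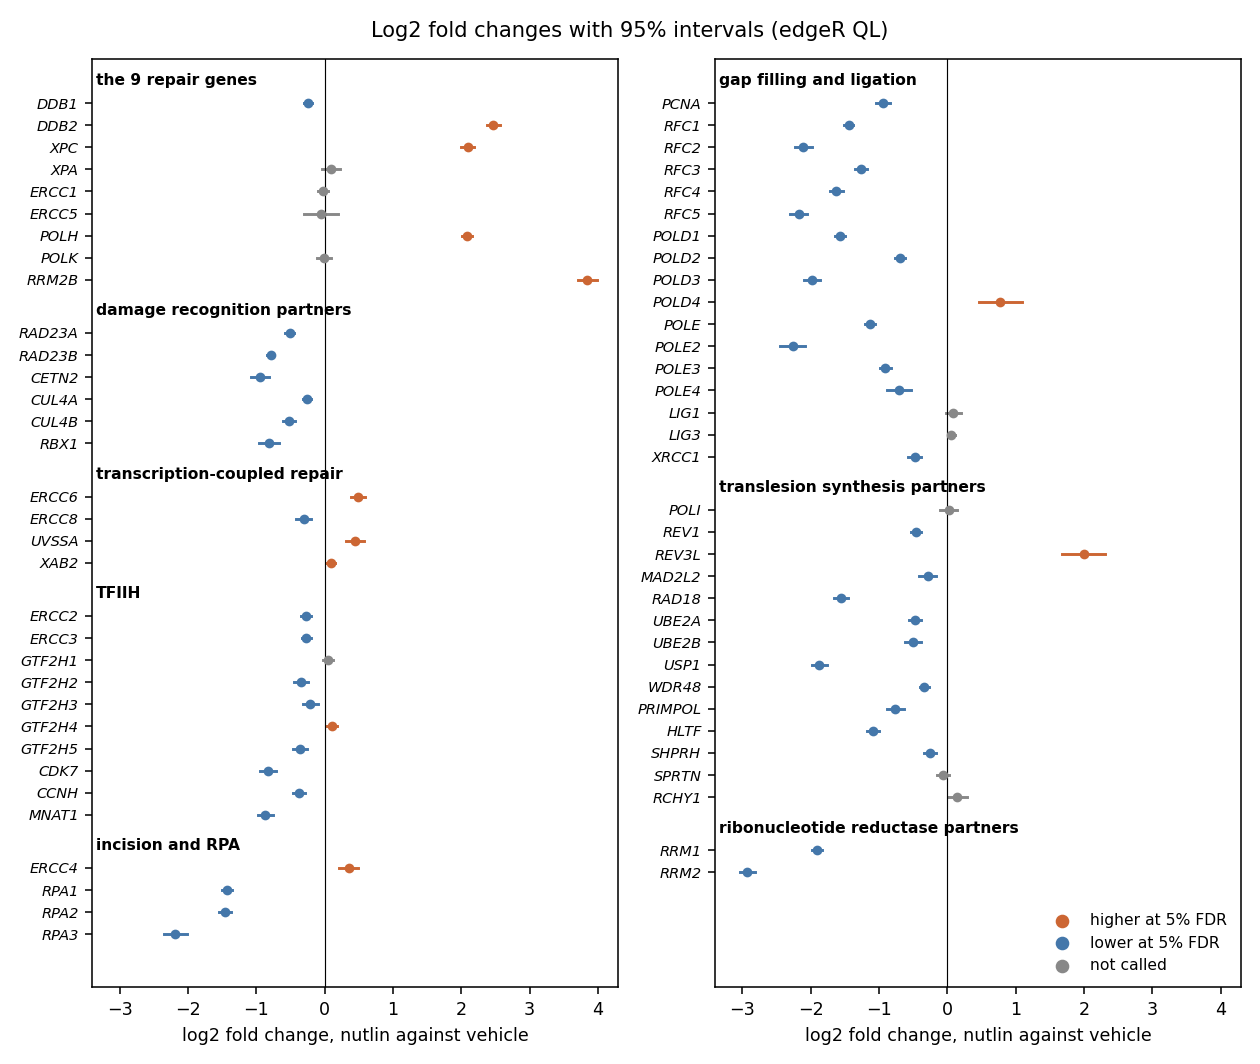
Log2 fold change of nutlin against vehicle (horizontal axis) with its 95% interval from edgeR QL for the 9 repair genes and the 57 genes of 7 partner lists. Orange marks genes higher at 5% FDR, blue lower and grey not called, and the lower genes include all 6 damage recognition partners, RPA1 to RPA3 and RFC1 to RFC5.

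POLH (ENSG00000170734, chr6:43576185-43620523, plus strand) encodes polymerase eta, which copies past thymine dimers. Its normalized CPM was 20.7 to 25.8 (median 24.5) under vehicle and 95.4 to 106 (median 103) under nutlin. The nutlin samples were tightly grouped, with a coefficient of variation of 3.41%, and far from the vehicle range. The fold change was 4.24 (95% interval 4.03 to 4.47), the LFC 2.09 (SE 0.0378) and the edgeR adjusted p 1.75e-27. GTPBP2, which shares 261 exon bases with POLH on the opposite strand, had an LFC of -0.40.

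POLK (ENSG00000122008, chr5:75511845-75609991, plus strand) encodes polymerase kappa, a relative of polymerase eta that passes bulky adducts. It had 20.3 to 27.9 normalized CPM (median 23.1) under vehicle and 20.7 to 24.5 (median 23.9) under nutlin. All nutlin samples lay within the vehicle range. The LFC was -0.01 (95% interval -0.12 to 0.10, edgeR adjusted p 0.898). In read pairs POLH and POLK thus stood near each other under vehicle and apart under nutlin.

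Of the 14 translesion partners, 10 fell, 1 rose and 3 were not called (38.5% of mRNAs fell and 32.4% rose), with a median LFC of -0.40. REV3L, the catalytic subunit of polymerase zeta, rose from a median normalized CPM of 17.7 (9.28 to 27.9) to 67.3 (56.1 to 110), an LFC of 1.99 with an SE of 0.163 that was wide beside those of the 4 repair genes that rose. RAD18, the ligase that ubiquitylates PCNA so that these polymerases are recruited, fell (LFC -1.56), as did USP1, which removes that mark (-1.87), and HLTF, which extends it (-1.09). REV1, the scaffold of the translesion polymerases, fell with an LFC of -0.46. POLI, the polymerase iota gene, had an LFC of 0.02 and was not called (edgeR adjusted p 0.838).

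RRM2B (ENSG00000048392, on chromosome 8) showed the largest change of the 9 genes. Vehicle samples had 4.98 to 9.11 normalized CPM (median 6.95), which rested on 75 to 158 estimated counts, and nutlin samples 84.0 to 109 (median 103), which rested on 1228 to 1678. The lowest nutlin sample was thus more than 9 times the highest vehicle sample. The fold change was 14.4 (95% interval 13.0 to 15.9), the LFC 3.85 (SE 0.0736) and the edgeR adjusted p 5.44e-27, and it took rank 203 by LFC among mRNAs. Its S-phase counterpart RRM2 fell from 395 to 458 normalized CPM (median 421) to 45.2 to 65.3 (median 55.3), an LFC of -2.93 (SE 0.0559). RRM1, the large subunit that pairs with either of them, fell from a median of 271 to 70.7 (LFC -1.91).

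Levels of different genes were compared per length, as TPM. Under vehicle DDB1 was highest at 135 ± 6.52 TPM (SD, n = 10), followed by ERCC1 at 117 ± 4.95 and DDB2 at 25.3 ± 2.74. ERCC5 (14.9 ± 3.74), XPC (11.7 ± 1.19), XPA (10.4 ± 1.56), POLH (9.03 ± 1.05) and POLK (8.04 ± 1.33) came next, and the range of each overlapped that of its neighbour in this order. RRM2B was last at 2.90 ± 0.484 TPM, with no sample as high as the lowest POLK sample. Under nutlin DDB2 (125 ± 11.1), ERCC1 (124 ± 6.01) and DDB1 (118 ± 6.65) had overlapping ranges at the top. XPC stood at 51.1 ± 5.12 TPM, above all samples of POLH (37.7 ± 2.996) and RRM2B (37.5 ± 1.85), whose ranges overlapped. ERCC5 (13.8 ± 2.56), XPA (10.8 ± 0.909) and POLK (8.78 ± 0.552) were then the lowest, again with overlap between neighbours. The rise thus took RRM2B from the last place in TPM to the level of POLH.

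The ratio of the TPM of a gene to that of a partner was taken within each sample, and the difference of the group means of the log2 ratio was tested by a two-sided permutation test with 100000 resamples, adjusted over 6 ratios. DDB2 to DDB1 went from a median ratio of 0.189 (0.151 to 0.239) to 1.09 (0.872 to 1.16), a log2 difference of 2.51 (SE 0.0748, adjusted permutation p 3e-05). Summed over transcripts of all types, DDB2 was thus about as abundant as DDB1 under nutlin. Protein-coding transcripts, however, held a median of 34.4% of DDB2 TPM and 79.9% of DDB1 TPM under nutlin. The canonical DDB2-201 had a median of 39.98 TPM under nutlin and the canonical DDB1-201 of 92.1. XPC to RAD23B went from 0.128 (0.115 to 0.149) to 0.927 (0.774 to 1.10), a log2 difference of 2.84 (SE 0.0652, adjusted permutation p 3e-05). POLH to POLK went from 1.07 (0.870 to 1.60) to 4.26 (3.78 to 4.94), a log2 difference of 1.93 (SE 0.0991, adjusted permutation p 3e-05). RRM2B to RRM2 moved most, from 0.0122 (0.00820 to 0.0152) to 0.834 (0.769 to 1.11), a log2 difference of 6.18 (SE 0.0976, adjusted permutation p 3e-05). These 4 ratios did not overlap between the groups, and their raw p of 2e-05 is the smallest that the resamples can give. In DDB2 to DDB1, XPC to RAD23B and RRM2B to RRM2 both genes were called, the partner downward. ERCC1 to ERCC4 (median 20.1 and 22.0, adjusted permutation p 0.518) and ERCC5 to ERCC1 (0.112 and 0.115, adjusted permutation p 0.274) overlapped and did not pass the test. In read pairs rather than TPM, ERCC1 to ERCC4 was lower under nutlin by a log2 difference of -0.38.

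**Figure D3:**
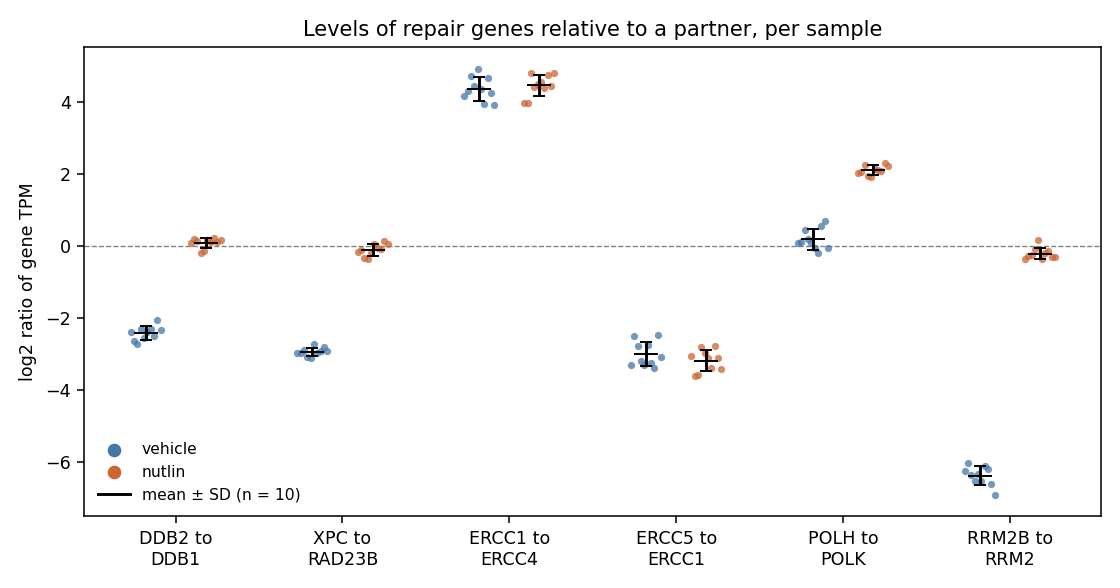
Log2 ratio of gene TPM for 6 pairs of a repair gene and a partner, with a point for each vehicle (blue) and nutlin (orange) sample and bars for the mean ± SD of 10 samples. The dashed line marks equal TPM, near which DDB2 to DDB1 (8 of 10 nutlin samples above it), XPC to RAD23B (3 of 10) and RRM2B to RRM2 (1 of 10) lie under nutlin, while POLH to POLK starts near it and moves up.

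Transcripts were described where they held at least 5% of the TPM of their gene in either group mean, which gave 42 transcripts. Of these 19 rose, 2 fell and 21 were not called by edgeR, against 22.6% of 128634 transcripts called, 12.2% higher and 10.4% lower. The 128634 include every transcript with a count of 1 or more in each condition, without the 5% filter. The 2 sets are therefore not alike. Of those that rose, DDB2-203, XPC-204 and RRM2B-208 passed the 5% filter only through their nutlin mean, so their calls are not independent of the selection. DDB2-210, which also rose, passed it only through its vehicle mean. The canonical coding transcripts of the 4 genes that rose moved with their genes. DDB2-201 had a median TPM of 6.33 under vehicle and 39.98 under nutlin (LFC 2.67), XPC-201 of 8.37 and 37.1 (LFC 2.11), POLH-202 of 7.25 and 30.7 (LFC 2.09) and RRM2B-201 of 1.47 and 19.2 (LFC 3.81). kallisto divides reads among transcripts that share exons, so values of single transcripts are less certain than those of genes.

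A share of the gene TPM changed for 13 of the 42 transcripts in a two-sided permutation test adjusted over all 42. It was run on the repair genes only, so no share over all genes stands beside this count and it does not set these genes apart. Shares within a gene are parts of a whole and do not move independently. Among the changed shares, those of DDB2-203, XPC-204, ERCC1-205 and POLK-217 reached the 5% filter only in the nutlin mean. That of DDB2-210 reached it only in the vehicle mean. For these the filter used the values that were then tested, so their p-values are not independent of the selection. No share of POLH, RRM2B or ERCC5 passed the permutation test. The shares of RRM2B were loose under vehicle, where RRM2B-201 held 48.3% ± 13.8 (SD, n = 10) against 50.9% ± 6.60 under nutlin. RRM2B-203 went from 10.2% ± 15.7 to 23.2% ± 4.29 (adjusted permutation p 0.0649) and RRM2B-205 from 18.7% ± 19.9 to 6.16% ± 4.90 (adjusted permutation p 0.155), so that a change in the mix of RRM2B transcripts was not resolved. In DDB2 the canonical DDB2-201 made up 25.4% ± 5.10 (SD, n = 10) under vehicle and 32.0% ± 2.99 under nutlin (adjusted permutation p 0.0125). DDB2-203, a transcript annotated for nonsense-mediated decay, went from 4.66% ± 3.63 to 11.1% ± 2.19 (adjusted permutation p 0.000672). The shares of the retained-intron transcripts DDB2-209 (34.2% to 26.5%) and DDB2-210 (5.68% to 2.11%) fell. Both were nonetheless called higher as transcripts (LFC 1.94 and 0.93). Protein-coding transcripts were thus a minority of DDB2 TPM in both groups, with a median of 28.3% and 34.4%. In XPC the share of XPC-204, which retains an intron, went from 3.60% ± 2.61 to 8.43% ± 1.46 (adjusted permutation p 0.000672), while XPC-201 stayed at 72.5% ± 9.87 and 70.9% ± 5.14 (adjusted permutation p 0.802).

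Shares also changed in genes whose total was not called. XPA-201, the only coding transcript of XPA, went from 57.8% ± 6.80 (SD, n = 10) to 46.3% ± 9.38 of the gene (adjusted permutation p 0.0196), and XPA-202, annotated for nonsense-mediated decay, from 15.7% ± 5.19 to 25.6% ± 5.37 (adjusted permutation p 0.00364). The ranges of XPA-201 overlapped between the groups, and its own level was not called (LFC -0.23, edgeR adjusted p 0.247). XPA-202 was called higher as a transcript (LFC 0.78, edgeR adjusted p 0.00533). The canonical ERCC1-202 went from 13.9% ± 1.04 to 11.05% ± 0.887 (adjusted permutation p 0.00042) and was called lower as a transcript (LFC -0.23, edgeR adjusted p 0.00154). ERCC1-205, annotated for nonsense-mediated decay, went from 1.67% ± 2.20 to 6.34% ± 2.95 and was at 0 in 6 samples. As a transcript it was not called (edgeR adjusted p 0.0848). In POLK no transcript held over 24.5% of the gene in either group mean. The share of POLK-216 went from 5.81% ± 1.57 to 10.5% ± 2.55 (adjusted permutation p 0.000672), and those of POLK-217 and POLK-212 changed with adjusted permutation p of 0.0418 and 0.0436. As transcripts, POLK-216 was called higher (LFC 0.998, edgeR adjusted p 0.00193), and POLK-217 and POLK-212 were not called. Taken as shares of the estimated counts instead, DDB2-201 (adjusted permutation p 0.0515) and POLK-212 (0.0735) no longer passed. In DDB1, whose total was called lower, only 1 share was tested. This was the canonical DDB1-201, which went from 83.5% ± 4.04 to 78.3% ± 2.18 (adjusted permutation p 0.0136).

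**Figure D4:**
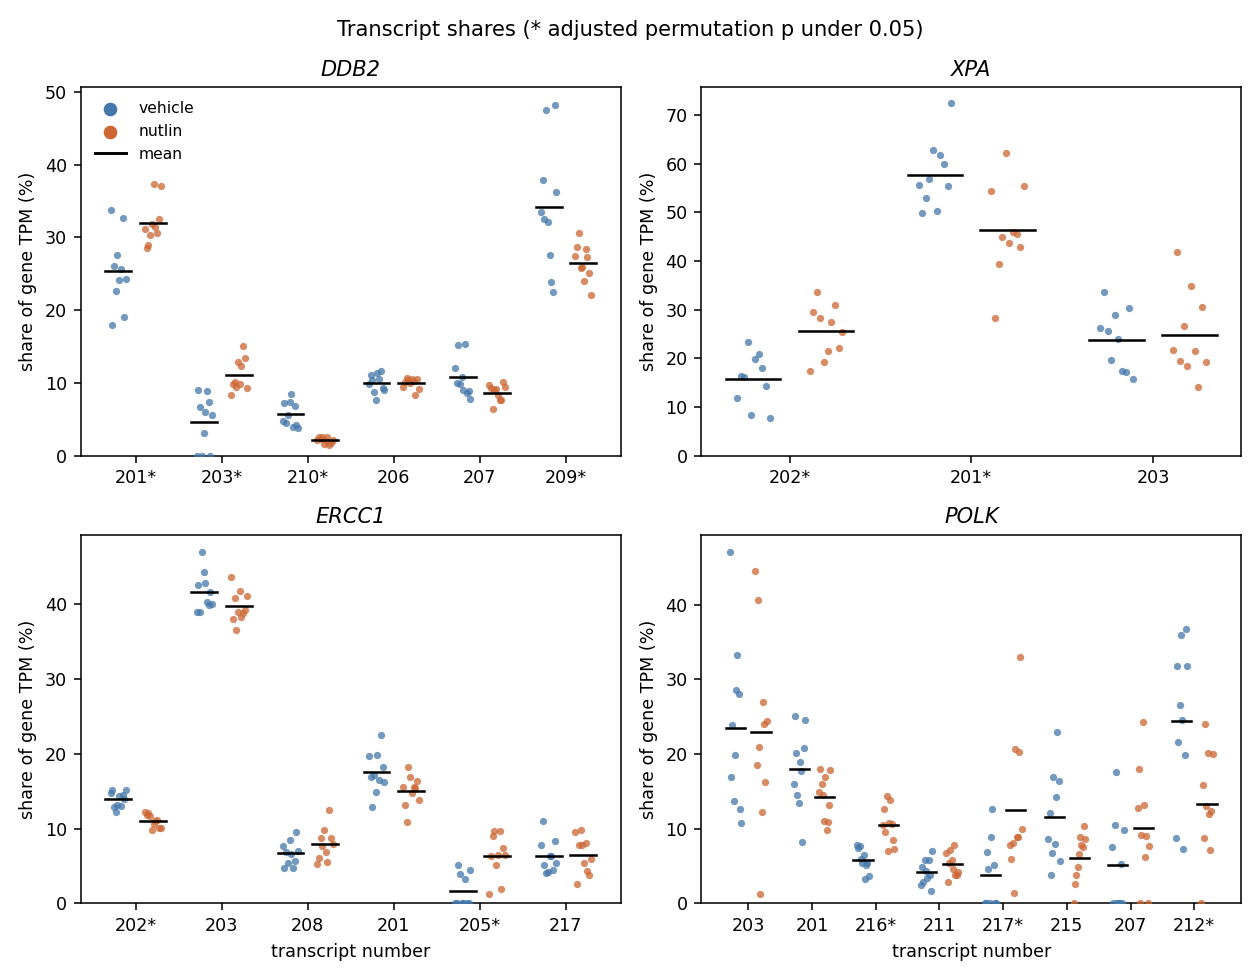
Share of the gene TPM (percent) held by each transcript of DDB2, XPA, ERCC1 and POLK with at least 5% in either group mean, with a point per vehicle (blue) or nutlin (orange) sample, a line at the mean and an asterisk where the adjusted permutation p was under 0.05. The mean of XPA-201 moves from 57.8% to 46.3% and that of DDB2-203 from 4.66% to 11.1%, and most shares overlap between the groups. DDB2-203, ERCC1-205 and POLK-217 reached 5% only in the nutlin mean and DDB2-210 only in the vehicle mean. Their asterisks are not independent of the filter.

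Within a condition, the 9 genes varied together only in part. Pearson correlations of the log2 normalized CPM after removal of the group means ran from -0.42 to 0.70 over the 36 pairs of genes, with a median of 0.07, each over the same 20 libraries, which also share their depth and TMM factors. The highest were DDB2 with XPC (0.70), XPC with POLH (0.67), DDB1 with ERCC1 (0.62) and DDB2 with POLH (0.52). Close below them came XPC with ERCC1 (0.50), XPA with POLK (0.46), POLK with RRM2B (0.46) and DDB2 with RRM2B (0.46). High values were thus not confined to pairs of genes that rose after nutlin. Nutlin replicate 4 was the lowest nutlin sample for DDB2, XPC, POLH and RRM2B alike, and its part in these correlations was not tested. The correlations describe the 20 libraries and were not tested.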

How the data were processed

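The authors quantified each library with kallisto v0.42.4 against GRCh38 transcripts of Ensembl. For each transcript of the 20 samples they deposited an estimated count (not normalized), a TPM (that count scaled by length and library size) and an effective length in bases. Transcripts were joined to GENCODE release 44 by identifier, which matched 191106 of 198968 (96.05%). The matched share of the estimated counts was 96.66% to 96.78% in vehicle libraries and 95.71% to 95.95% in nutlin libraries. Counts were summed by gene and rounded, and genes with a total of 1 or more in both conditions were fitted with edgeR 4.0.16 (R 4.3.3) by the quasi-likelihood test with TMM and Benjamini-Hochberg adjustment over all genes. TPM was summed by gene. The SE was taken from the fit, and 95% intervals assume a normal error. Intervals cover the spread between samples. Shares and ratios were computed in Python 3.11.15 with scipy 1.17.1. The sequences came from RefSeq and hg38, and chromosome 8 was left out of the scan. In a test on simulated data for this comparison, 182 of 200 changed genes among 27279 were recovered, with 5 false calls. Far fewer genes were changed there than the 58.8% called in these data. The test therefore does not cover normalization where most genes change. Alternatives used DESeq2 1.42.0, limma 3.58.1, other filters, effective lengths as an offset, the replicate number as a block and 1% FDR.

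The 9 genes and the partner lists were chosen with earlier results of these data known. Named partners were those called with an absolute LFC of at least 1, and RAD23B, CUL4A, RBX1, ERCC4, PCNA, POLI, REV1, RAD18, RRM1 and RRM2 whatever their values. MDM2 was named as the treatment check. Some marker genes and 1 sequence are not reported here.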

Additional observations from a re-analysis of the deposited data

Results flagged for a closer look

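Among 30 sets of 10 samples (the normalized CPM of the 9 genes and the 6 log2 TPM ratios, in each condition), 1 had a sample far from the others by Dixon's test at its 95% critical value. This was DDB1 under nutlin, where replicate 4 had 461.1 normalized CPM and the next sample 429.9, a gap of 0.564 of the whole range. A chance flag in about 5% of such sets would be usual. Nutlin replicate 4 lay below the lowest vehicle sample (469), so the groups did not overlap with it included. This replicate was also the lowest nutlin sample for DDB2 (139.9 normalized CPM), XPC (128), POLH (95.4) and RRM2B (84.0). It was thus the nutlin sample nearest to vehicle in each called gene, and why was not tested.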

How the results depend on the processing

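Of 444 values under alternatives, 436 kept their side of the threshold or lay within 1.5 times the count. The 436 include LFCs that changed sign in genes not called. These ran from -0.02 to 0.08 for ERCC1, -0.11 to 0.04 for ERCC5 and -0.01 to 0.13 for POLK. The ratio of ERCC1 to ERCC4 changed sign when CPM replaced TPM (log2 difference -0.38, adjusted permutation p 0.000744). With the effective length offset ERCC4 had an LFC of -0.0148 and was no longer called, nor was XAB2. At 1% FDR XAB2 and GTF2H4 were not called, nor was GTF2H4 with the replicate block (adjusted p 0.0863). XPA was called with the filterByExpr filter only, where 6 of the 9 genes were called and 5 in the other settings. A replicate block over the 8 numbers found in both conditions leaves 16 samples. It called 19152 transcripts, against 23871 on the same 16 samples without the block (added after the data were seen) and 29112 on all 20. For genes these counts were 14276, 14992 and 16275, and 50, 51 and 51 for partner genes. Same-numbered samples did not deviate together (correlations of -0.04 to 0.05 over 8 pairs, 0 of them over 0.1), so the numbers were not taken to pair the samples. The number of genes called ran from 13123 (filterByExpr) to 17126 (no filter), and that of partner genes from 49 to 55. Across the settings the LFC ran from 2.30 to 2.55 for DDB2, 2.10 to 2.18 for XPC, 2.06 to 2.16 for POLH, 3.70 to 3.92 for RRM2B and -0.24 to -0.16 for DDB1. Adding a read-through gene to ERCC5 was not run, since no transcript of it was matched. The depth limits RRM2B under vehicle, ERCC5 and XPA most, with medians of 105, 142.5 and 156 estimated counts under vehicle.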
